A study of Mus musculus with 10 samples.

Results

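The genes described here encode 8 enzymes of cholesterol synthesis, in pathway order Hmgcs1, Mvd, Idi1, Fdps, Fdft1, Sqle, Lss and Cyp51, together with Insig1, which encodes a regulator of the pathway. The 9 genes were given by name and were taken from the deposited count table wherever its gene name equalled a listed name, and all 9 were found among its 40789 genes. RNA was sequenced from sorted microglia, which are tissue macrophages of the brain, of 10 female C57BL6/J mice that were 2 to 3 months old. Every mouse, controls included, carried the CX3CR1+/egfp genotype, in which 1 copy of the fractalkine receptor gene is replaced by a green fluorescent reporter. The LPS group (n = 5) received 4 mg/kg lipopolysaccharide, a component of bacterial cell walls, into the peritoneum, and the saline group (n = 5), titled PBS in the labels, received saline. After 24 hours, cells bright for the reporter were sorted from cortex, 1 mouse per library. The reporter is not particular to microglia, since other cells of the monocyte lineage also express Cx3cr1.

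Cholesterol is built from acetyl-CoA through mevalonate, the isoprenoid diphosphates, squalene and lanosterol. The transcription factor SREBP2 drives the genes of these steps. When sterols in the endoplasmic reticulum are plentiful, INSIG proteins hold SREBP2 and its escort SCAP there. Circulating cholesterol does not cross into the brain, so brain cells make it or receive it from neighbours, with astrocytes and myelinating oligodendrocytes as the main producers.

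Total counts per library lay between 11577295 and 15332121. Values are given in CPM, the count of a gene relative to the library total after TMM scaling, with the SD of the 5 mice of a group. A log2 change is the log2 of the LPS level over the saline level. The ± after it is a standard error from the spread of log2 CPM within each group, not from the fit that gave the change. A gene was called when its edgeR quasi-likelihood p, adjusted by Benjamini-Hochberg over the 13793 genes tested, was under 0.05. Over all tested genes 22.4% were called higher and 22.5% lower, the shares to set beside the marker counts that follow. Markers of microglia were abundant but fell in LPS: the 10 listed genes summed to 54900 to 62100 CPM in saline and 16500 to 29900 CPM in LPS, with 7 called lower and none higher. Monocyte markers summed to 14.4 to 22.8 CPM in saline and 78.1 to 219 CPM in LPS (3 of 6 tested called higher, 2 lower), border-associated macrophage markers to 12.6 to 16.7 and 29.6 to 62.0 CPM (3 of 5 higher), and neutrophil markers to 0.162 to 1.12 and 2.01 to 32.4 CPM (1 of 1 higher). Ly6c2, Ly6g, Camp, Cd163 and Lyve1 stayed under 1 CPM in every library. Oligodendrocyte markers summed to 103 to 130 CPM in saline and 90.3 to 118 CPM in LPS (0 of 5 called), and astrocyte markers to 371 to 433 and 148 to 368 CPM (1 of 5 lower, none higher). Cldn5, an endothelial marker, had no count in any library, and the endothelial and pericyte sum was 50.3 to 73.1 CPM in saline and 4.77 to 10.9 CPM in LPS. The part of these other cells in the results below was not tested.

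Sequences before the start sites of Hmgcs1, Mvd and Insig1 are shown because these 3 of the 9 genes kept their call in all 23 alternative settings. Each line holds the 250 bases before the RefSeq start on GRCm38.p6, read 5′ to 3′ on the strand of the gene. Capitals mark matches, on either strand, to the core of the sterol response element bound by SREBP (TCACNCCAC, where N is any base), the NF-Y box (CCAAT), the E-box (CACGTG) and the GC box (GGGCGG). The stretches lie at chr13:119690101-119690350 (plus strand) for Hmgcs1, chr8:122443423-122443672 (minus strand) for Mvd and chr5:28071162-28071411 (plus strand) for Insig1.
Hmgcs1: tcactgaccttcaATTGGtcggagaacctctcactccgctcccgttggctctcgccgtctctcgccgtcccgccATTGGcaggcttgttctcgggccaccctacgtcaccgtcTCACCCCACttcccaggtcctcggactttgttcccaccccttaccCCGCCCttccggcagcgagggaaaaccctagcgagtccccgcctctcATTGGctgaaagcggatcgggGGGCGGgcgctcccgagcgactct
Mvd: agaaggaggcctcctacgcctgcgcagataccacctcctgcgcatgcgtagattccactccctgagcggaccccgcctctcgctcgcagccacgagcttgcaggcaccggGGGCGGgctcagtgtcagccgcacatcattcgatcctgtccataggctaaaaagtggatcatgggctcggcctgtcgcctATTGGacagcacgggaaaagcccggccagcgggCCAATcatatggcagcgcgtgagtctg
Insig1: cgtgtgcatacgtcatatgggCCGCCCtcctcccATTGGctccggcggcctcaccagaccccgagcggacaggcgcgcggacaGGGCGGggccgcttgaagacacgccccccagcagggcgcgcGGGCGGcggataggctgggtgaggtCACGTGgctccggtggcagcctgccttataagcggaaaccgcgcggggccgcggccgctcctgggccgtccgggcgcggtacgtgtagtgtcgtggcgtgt

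The Hmgcs1 stretch held 1 match to the sterol response element core, at positions -137 to -129 from the start, and 3 NF-Y boxes. The Mvd stretch held 2 NF-Y boxes, at -60 to -56 and -27 to -23, and 1 GC box. The Insig1 stretch held 1 NF-Y box, 3 GC boxes and an E-box at -101 to -96. RefSeq windows of 250 bases before to 50 bases after a start were matched for 6 of the 9 genes. Cyp51, Lss and Idi1 were the others, and Fdps, Fdft1 and Sqle had no entry. Over the whole windows all 6 held an NF-Y box and all 6 a GC box, against 37.4% and 35.7% of 32851 promoters. The sterol response element core was in Hmgcs1 alone of these 6 (1.24% of promoters), and the E-box in Insig1 alone (7.15%). The 3 stretches were rich in G and C (64.8%, 62.8% and 72.8%). A match describes these letters only. Only these exact strings were searched, so a missing match does not show that a promoter lacks the element.

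The design sets microglia after LPS against microglia after saline, and enzymes of 1 pathway moved in opposite directions. Hmgcs1, at the entry to the pathway, fell 1.69-fold, while Mvd, which completes the mevalonate segment, rose 4.38-fold and Insig1 rose 2.15-fold. Fdps rose 1.62-fold, with a call that several alternatives ended. Fdft1, Sqle, Lss and Cyp51, the steps from farnesyl diphosphate to the demethylated sterol, were not called, and Idi1 had too few reads to be tested. Thus 3 of 8 tested genes were called higher and 1 lower, where 22.4% and 22.5% of all tested genes were called higher and lower, and the members' median log2 change was 0.46, while over all genes tested it was 0.00. The groups did not overlap for 2 genes in the higher and 1 in the lower direction, where 14.1% and 15.7% of all genes tested did not overlap. In these sorted populations, fewer cells of a type and less RNA per cell cannot be told apart.

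**Figure D1:**
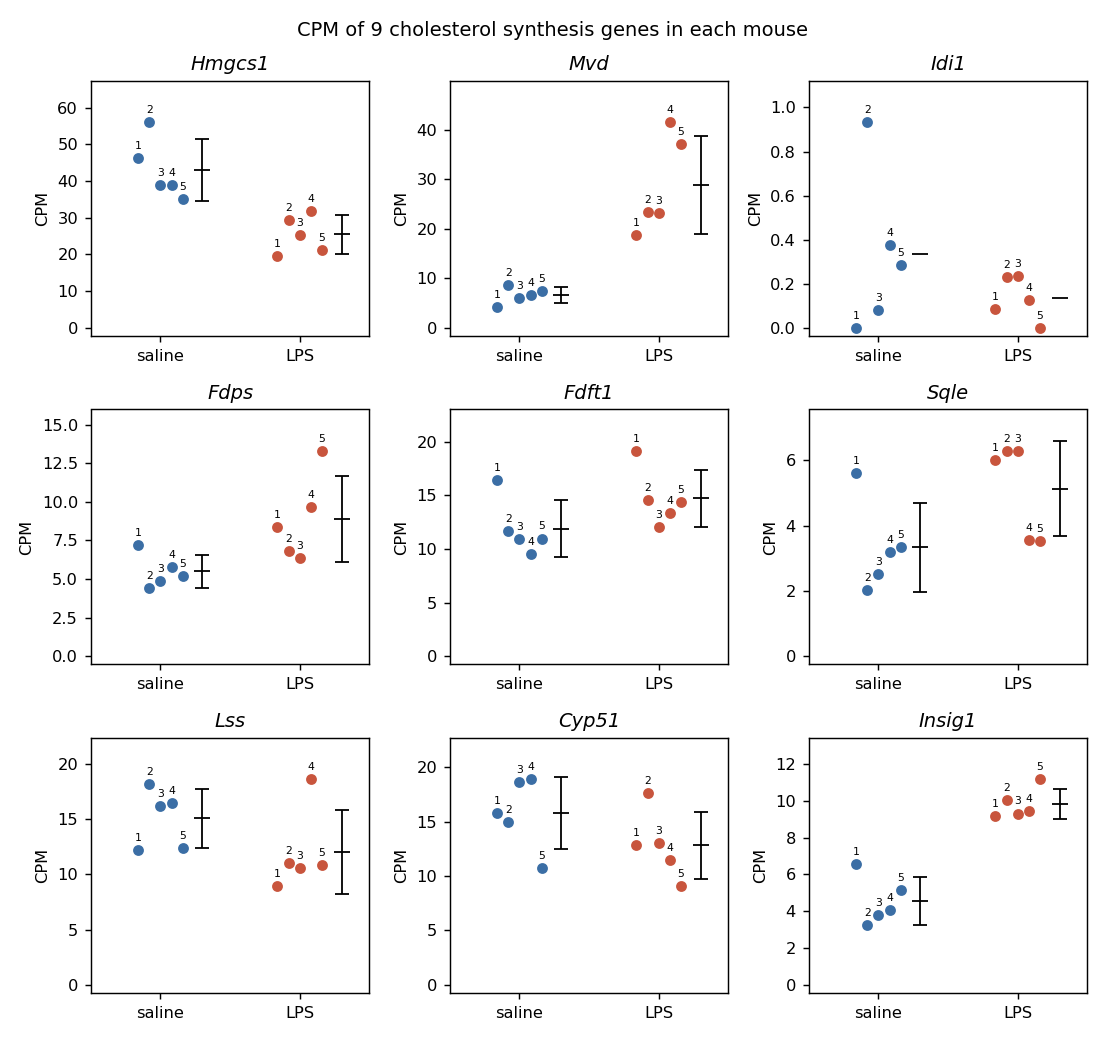
CPM of the 9 genes in each of 5 saline and 5 LPS mice on linear axes; numbered points are replicates, and bars beside them are the mean and SD (mean only for Idi1). The groups are apart for Hmgcs1, Mvd and Insig1, and overlap for the other 6 genes.

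Hmgcs1 (Entrez gene 208715, chromosome 13, 119690351 to 119708260 on GRCm38.p6) encodes the cytosolic synthase that joins acetyl-CoA and acetoacetyl-CoA into HMG-CoA. Saline replicates 1 to 5 had 46.3, 56.1, 38.9, 38.8 and 35.1 CPM, and LPS replicates 1 to 5 had 19.6, 29.4, 25.3, 31.9 and 21.2 CPM. Every LPS mouse lay below every saline mouse, although the highest LPS mouse (replicate 4) and the lowest saline mouse (replicate 5) were close. The means were 43.05 ± 8.34 and 25.5 ± 5.25 CPM (log2 change -0.75 ± 0.18, edgeR's adjusted p = 0.00308). The raw counts behind these values were at least 482 in saline and 234 to 504 in LPS. Over 23 alternative settings the gene was called lower in all 23, with log2 changes of -0.85 to -0.58.

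Mvd (Entrez gene 192156, chromosome 8, 122433596 to 122443422) encodes the decarboxylase that turns mevalonate diphosphate into isopentenyl diphosphate, the isoprene building block. Its saline values were 4.22, 8.74, 5.98, 6.68 and 7.335 CPM, and its LPS values 18.8, 23.4, 23.2, 41.6 and 37.1 CPM. The lowest LPS mouse was above the highest saline mouse, and LPS replicates 4 and 5 stood above the other LPS mice. The means were 6.59 ± 1.67 and 28.8 ± 9.90 CPM (log2 change 2.13 ± 0.28, edgeR's adjusted p = 1.86e-05), which placed Mvd at rank 328 of the 13793 tested genes when ordered from the largest rise. All 23 alternatives called it higher, with log2 changes of 1.84 to 2.26. Mvd overlaps the noncoding gene Gm51557 in the RefSeq table over 3213 bases, and whether counting used strand is unknown here.

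Idi1 (Entrez gene 319554, chromosome 13, 8885606 to 8892396) encodes the isomerase that makes dimethylallyl diphosphate from isopentenyl diphosphate. It had 0, 11, 1, 6 and 4 raw counts in the saline libraries and 1, 3, 3, 2 and 0 in the LPS libraries, and so did not pass the filter on low counts. A count of 0 allows up to 3 counts, or 0.197 CPM in saline replicate 1 and 0.234 CPM in LPS replicate 5, for counting error only. The other isomerase gene, Idi2, had 1 count over all 10 libraries. Neither level could be compared between the groups at this depth, and why so few reads were assigned to this step was not tested.

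Fdps (Entrez gene 110196, chromosome 3, 89093588 to 89101967) encodes farnesyl diphosphate synthase, the branch point to sterols, prenylated proteins, ubiquinone and dolichol. Its saline values were 7.18, 4.41, 4.85, 5.80 and 5.20 CPM, and its LPS values 8.37, 6.84, 6.37, 9.63 and 13.3 CPM. Saline replicate 1 lay inside the LPS range, and LPS replicate 5 was the highest mouse. The means were 5.49 ± 1.07 and 8.90 ± 2.78 CPM (log2 change 0.69 ± 0.22, edgeR's adjusted p = 0.0314). The call ended in 9 of 23 alternatives. It ended without saline replicate 2, 3, 4 or 5 (edgeR's adjusted p = 0.0670, 0.0651, 0.0507 and 0.0586) and without LPS replicate 5 (0.0900). Library sizes alone (edgeR's adjusted p = 0.0557), no filter (0.0706) and a term for ranges of mouse numbers, given below, also ended it. The log2 change was 0.26 (edgeR's adjusted p = 0.387) once a trend over gene length was removed.

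Fdft1 (Entrez gene 14137, chromosome 14, 63145150 to 63181687) encodes squalene synthase, the step that commits farnesyl diphosphate to sterols. It had 16.4, 11.7, 10.9, 9.48 and 10.97 CPM in saline and 19.2, 14.6, 12.03, 13.4 and 14.4 CPM in LPS. Replicate 1 was the highest of its group in both, and the groups overlapped. The means were 11.9 ± 2.65 and 14.7 ± 2.69 CPM (log2 change 0.31 ± 0.17, edgeR's adjusted p = 0.206). With the gene-length trend removed it was called higher (log2 change 0.66, edgeR's adjusted p = 0.0215). The last 774 bases of the gene, at 63145150 to 63145923, also belong to Ctsb, a cathepsin gene with 8532 ± 557 CPM in saline and 9986 ± 1378 CPM in LPS, so the count of Fdft1 is uncertain.

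Sqle (Entrez gene 20775, chromosome 15, 59315092 to 59331193) encodes squalene epoxidase, an oxygen-dependent and rate-limiting step. Its saline values were 5.60, 2.04, 2.505, 3.18 and 3.35 CPM, from 24 to 85 raw counts, and its LPS values 6.02, 6.30, 6.29, 3.55 and 3.52 CPM, from 45 to 82 raw counts. LPS replicates 1 to 3 lay near 6 CPM and replicates 4 and 5 near the saline mice, while saline replicate 1 was close to the upper LPS mice. The means were 3.33 ± 1.37 and 5.14 ± 1.47 CPM (log2 change 0.61 ± 0.30, edgeR's adjusted p = 0.124). Without saline replicate 1, when 20.1% of all tested genes were called higher, Sqle was called higher (log2 change 0.88, edgeR's adjusted p = 0.0376).

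Lss (Entrez gene 16987, chromosome 10, 76531565 to 76557139) encodes lanosterol synthase, which closes the sterol rings. Saline values were 12.2, 18.2, 16.2, 16.5 and 12.4 CPM, and LPS values 8.95, 11.1, 10.6, 18.6 and 10.9 CPM. LPS replicate 4 was above all saline mice, and the other LPS mice were below all of them. The means were 15.07 ± 2.65 and 12.02 ± 3.79 CPM (log2 change -0.32 ± 0.21, edgeR's adjusted p = 0.230). Without LPS replicate 4, when 25.2% of all tested genes were called lower, Lss was called lower (log2 change -0.54, edgeR's adjusted p = 0.0255), and with the gene-length trend removed the sign turned (log2 change 0.11, edgeR's adjusted p = 0.630).

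Cyp51 (Entrez gene 13121, chromosome 5, 4080674 to 4104697) encodes the demethylase that acts on lanosterol. It had 15.7, 14.9, 18.7, 18.9 and 10.75 CPM in saline and 12.8, 17.6, 13.04, 11.5 and 9.08 CPM in LPS. The groups overlapped widely, with replicate 5 lowest in both. The means were 15.8 ± 3.32 and 12.8 ± 3.11 CPM (log2 change -0.30 ± 0.21, edgeR's adjusted p = 0.244), and none of 23 alternatives called it.

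Insig1 (Entrez gene 231070, chromosome 5, 28071412 to 28078662) encodes the membrane protein that retains SCAP and SREBP2, and is itself a target of SREBP. Saline values were 6.59, 3.22, 3.80, 4.055 and 5.13 CPM, and LPS values 9.20, 10.1, 9.32, 9.44 and 11.2 CPM. The groups were apart, and the LPS mice lay closer together than the saline mice. The means were 4.56 ± 1.33 and 9.84 ± 0.824 CPM (log2 change 1.11 ± 0.18, edgeR's adjusted p = 0.00127). Insig1 was called higher in all 23 alternatives, with log2 changes of 0.83 to 1.27. The gene lies within the noncoding gene Gm35223, which had no count in any library.

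Mice did not rank alike across the 8 tested genes. Saline replicate 1 was the highest saline mouse for Fdps, Fdft1, Sqle and Insig1 and the lowest for Mvd and Lss. Saline replicate 2 was highest for Hmgcs1, Mvd and Lss and lowest for Fdps, Sqle and Insig1. In LPS, replicate 4 was highest for Hmgcs1, Mvd and Lss, and replicate 1 was lowest for Hmgcs1, Mvd, Lss and Insig1. The titles of the libraries carry mouse numbers that fall into 3 ranges, and within each range Mvd (differences of mean log2 CPM of 1.76, 1.85 and 2.40), Insig1 (1.04, 1.22 and 0.98) and Hmgcs1 (-1.08, -0.62 and -0.43) kept their direction, each range holding 1 or 2 mice per group. With these ranges as a term in the fit, Fdps was not called (log2 change 0.56, edgeR's adjusted p = 0.0956). Nothing in the labels says what the numbers stand for.

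Ratios of raw counts within a library do not depend on how libraries are scaled to each other. They still carry the trend over gene length, which was not removed here. In each pair the first gene is the shorter: relative lengths are 0.59 for Mvd, 0.84 for Insig1, 1.17 for Hmgcs1 and 1.385 for Cyp51. The log2 ratio of Mvd to Hmgcs1 was -3.46, -2.68, -2.70, -2.54 and -2.26 in saline replicates 1 to 5 and -0.06, -0.33, -0.12, 0.38 and 0.81 in LPS replicates 1 to 5. Its mean went from -2.73 ± 0.44 to 0.14 ± 0.46, with no overlap. For Insig1 to Hmgcs1 the log2 ratio was -4.12 to -2.78 in saline and -1.76 to -0.92 in LPS. For Mvd to Cyp51, an early and the last enzyme of the set, it was -1.90 to -0.55 in saline and 0.41 to 2.03 in LPS. These 3 pairs were picked with earlier results of these data known, so their values are a description.

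**Figure D2:**
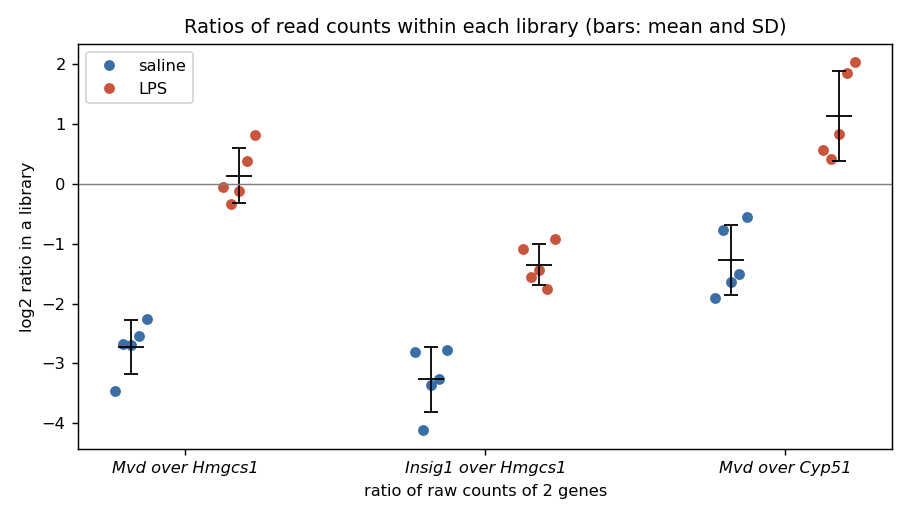
Log2 ratio of the raw counts of 2 genes in each library for 3 pairs of genes; points are mice, and bars are the mean and SD of 5 mice. In all 3 pairs the LPS mice lie above the saline mice, and for Mvd to Hmgcs1 the mean goes from -2.73 to 0.14. The gene-length trend was not removed.

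Levels between genes were compared on the authors' deposited RPKM values, which divide by gene length and hold 8 of the 9 genes. In saline Hmgcs1 was the most abundant at 11.6 ± 2.31 RPKM, and all its mice lay above those of the next gene, Fdps (3.71 ± 0.691 RPKM). Cyp51 (3.59 ± 0.730), Mvd (3.50 ± 0.914), Fdft1 (2.25 ± 0.499), Lss (2.01 ± 0.358), Insig1 (1.70 ± 0.493) and Sqle (1.198 ± 0.484 RPKM) followed, and from Fdps down the ranges of neighbours in this order overlapped. In LPS Mvd led at 15.6 ± 5.24 RPKM, and its lowest mouse (10.28 RPKM) was above the highest of Hmgcs1 (8.62 RPKM, mean 7.01 ± 1.39). Fdps (6.16 ± 1.93 RPKM) overlapped with Hmgcs1 and lay above Insig1 (3.76 ± 0.336 RPKM). Cyp51 (2.98 ± 0.741), Fdft1 (2.85 ± 0.537), Sqle (1.89 ± 0.547) and Lss (1.63 ± 0.495 RPKM) came last, with overlapping neighbours.

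**Figure D3:**
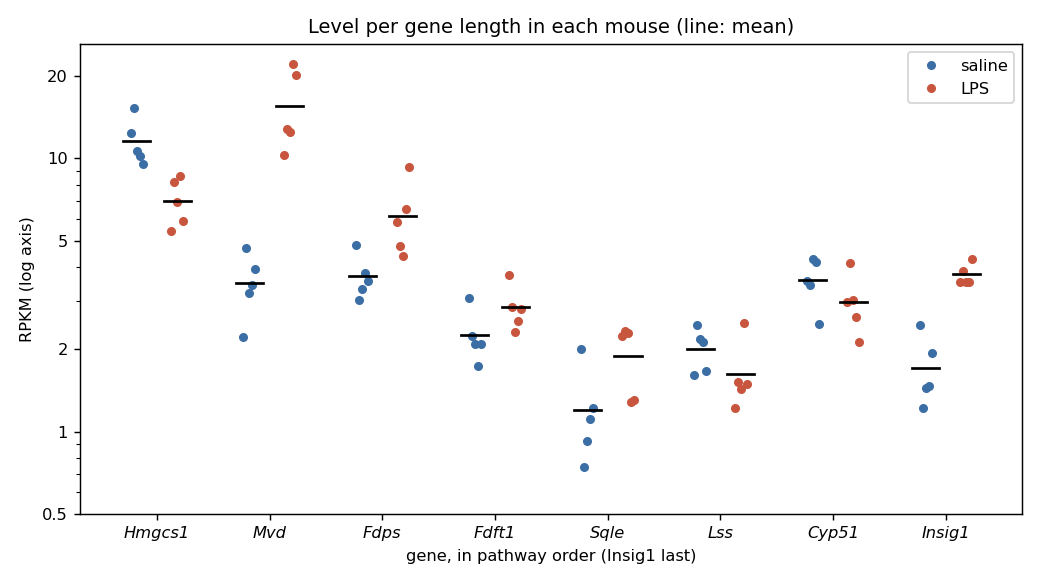
RPKM per mouse on a log axis for the 8 genes in the deposited RPKM table, saline beside LPS, with a line at each mean. Hmgcs1 is highest in saline (11.6 RPKM) and Mvd in LPS (15.6 RPKM).

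Another 14 listed synthesis genes also moved both ways. Of 13 tested, 6 were called higher and 2 lower, where 22.4% and 22.5% of all tested genes were, and their median log2 change was 0.33. With the gene-length trend removed 4 were higher and 1 lower (Lbr), where 20.6% and 18% of all genes in that fit were. The 2 kinases whose products lead to the substrate of Mvd both rose. Mvk, mevalonate kinase, rose from 4.75 ± 1.57 to 8.98 ± 2.73 CPM (log2 change 0.92 ± 0.28, edgeR's adjusted p = 0.0150). Pmvk, phosphomevalonate kinase, had 36.4, 41.5, 39.4, 32.9 and 29.8 CPM in saline and 69.3, 50.01, 70.1, 179.7 and 109.5 CPM in LPS (log2 change 1.41 ± 0.33, edgeR's adjusted p = 0.00105). As for Mvd, LPS replicates 4 and 5 were the highest mice for Pmvk. Acat2, the thiolase that supplies acetoacetyl-CoA, was not called (24.1 ± 2.80 and 23.3 ± 3.38 CPM, edgeR's adjusted p = 0.807).

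Among enzymes after farnesyl diphosphate, Ggps1, which makes geranylgeranyl diphosphate, fell from 87.2 ± 9.53 to 60.6 ± 5.04 CPM (edgeR's adjusted p = 0.00345). Lbr, a sterol reductase that also anchors chromatin at the nuclear envelope, fell from 109 ± 19.3 to 66.7 ± 16.1 CPM (edgeR's adjusted p = 0.00473), whereas Tm7sf2, the other reductase of that step, was not called (5.10 ± 1.12 and 6.40 ± 1.11 CPM, edgeR's adjusted p = 0.263). In the removal of methyl groups, Nsdhl rose from 31.2 ± 3.81 to 47.3 ± 8.08 CPM (edgeR's adjusted p = 0.00456), and Msmo1 was not called (79.9 ± 9.45 and 96.7 ± 9.78 CPM, edgeR's adjusted p = 0.0936). Hsd17b7, the ketoreductase of the same complex, was called higher (6.59 ± 1.54 and 9.94 ± 2.43 CPM, edgeR's adjusted p = 0.0479). Its call ended in 12 of 23 alternatives. These included 7 of the 10 fits with 1 library left out, all except those without saline replicate 3, LPS replicate 4 or LPS replicate 5 (edgeR's adjusted p = 0.0654 to 0.133 over the 7). The others were edgeR with upper quartile factors (adjusted p = 0.0526), library sizes alone (0.0959) or no filter (0.109). Limma on filtered log2(RPKM + 1) or log2(RPKM + 0.1) also ended it (adjusted p = 0.0550 and 0.0597). Erg28, the scaffold of the complex, listed as 0610007P14Rik in the count table, rose from 59.7 ± 12.3 to 93.0 ± 18.4 CPM (edgeR's adjusted p = 0.00916). Ebp, a sterol isomerase, rose from 163 ± 31.7 to 350.1 ± 77.1 CPM (log2 change 1.10 ± 0.20, edgeR's adjusted p = 0.000267). Sc5d (37.8 ± 5.69 and 30.7 ± 3.83 CPM, edgeR's adjusted p = 0.101) and Dhcr7 (75.0 ± 9.24 and 87.1 ± 14.1 CPM, edgeR's adjusted p = 0.236) were not called.

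**Figure D4:**
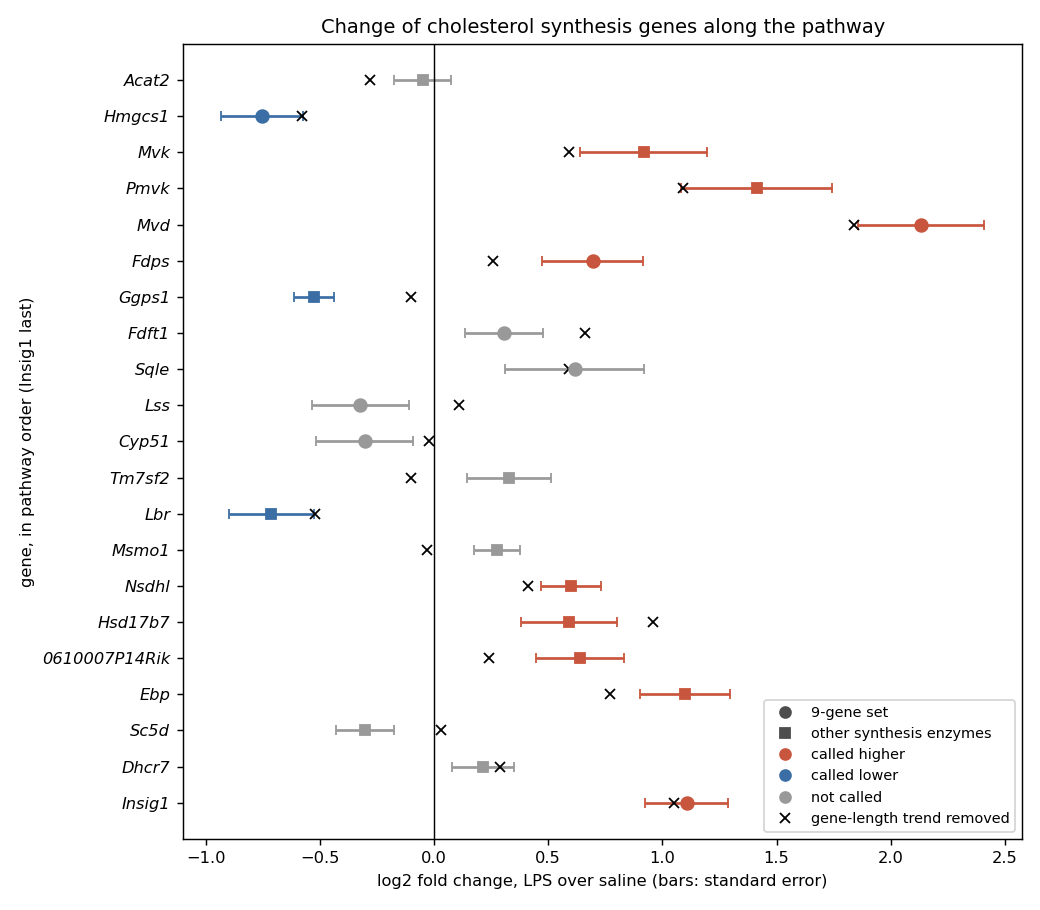
Log2 fold change, LPS over saline, for 21 tested genes in pathway order, Insig1 last, with a standard error from log2 CPM. Circles are the 9-gene set, squares the other synthesis genes, colour the call and crosses the value with the gene-length trend removed. Hmgcs1 lies left of 0, and Mvk, Pmvk and Mvd, 3 steps in a row, lie right of it by 0.92, 1.41 and 2.13.

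Direction went with gene length, which differed between the libraries as a whole: genes in the lowest quintile of length took up 12.4% to 17.5% of a saline library and 20.2% to 28.9% of an LPS library. Of the 12 tested synthesis genes shorter than the median, Insig1 set aside, 7 were called higher and none lower. Of the 8 of median length or longer, 1 was higher and 3, namely Hmgcs1, Ggps1 and Lbr, were lower. Over all tested genes with a length, 36% of the shorter were called higher and 10.2% lower, and 10% and 36.1% of the longer. With each library's trend over length removed, 20.6% of 13199 genes were called higher and 18% lower. Then 4 of the shorter genes (Mvd, Pmvk, Nsdhl and Ebp) were called higher, and of the longer genes Fdft1 and Hsd17b7 were higher and Hmgcs1 and Lbr lower. In that fit Mvd had a log2 change of 1.84 (edgeR's adjusted p = 0.000109), Insig1 1.05 (0.00169) and Hmgcs1 -0.58 (0.00878). Fdps, Mvk, Ggps1 and Erg28 were no longer called (edgeR's adjusted p = 0.387, 0.0818, 0.516 and 0.171).

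The list of SREBP processing and of protein turnover in the endoplasmic reticulum also held Nfya, Nfyb and Nfyc, which encode NF-Y. Of its 14 genes, 2 were called higher and 5 lower (median log2 change -0.24), beside 22.4% and 22.5% of all tested genes. With the gene-length trend removed 3 were higher and 2 lower, beside 20.6% and 18% of all genes. Both proteases that cut SREBP free fell: Mbtps1 from 82.6 ± 12.9 to 40.3 ± 8.45 CPM (edgeR's adjusted p = 0.000164) and Mbtps2 from 28.2 ± 3.50 to 14.9 ± 2.92 CPM (edgeR's adjusted p = 0.000576). Syvn1, a ubiquitin ligase of protein quality control in that membrane, rose from 22.2 ± 3.84 to 38.0 ± 6.31 CPM (edgeR's adjusted p = 0.00160). Srebf2, which encodes SREBP2, was not called (3.76 ± 1.16 and 5.00 ± 0.626 CPM, edgeR's adjusted p = 0.211), but was with the gene-length trend removed (log2 change 0.81, edgeR's adjusted p = 0.0225). Its escort Scap (16.4 ± 1.69 and 18.03 ± 5.45 CPM, edgeR's adjusted p = 0.598) was not called. Insig2, the paralog of Insig1, was not called either (77.3 ± 10.2 and 62.5 ± 10.3 CPM, edgeR's adjusted p = 0.0989). It was called lower without saline replicate 4 (log2 change -0.40, edgeR's adjusted p = 0.0395), when 18.8% of all tested genes were. Library sizes alone also called it lower (-0.39, edgeR's adjusted p = 0.0342), beside 25.2% of all tested genes. With the gene-length trend removed its log2 change was -0.00 (edgeR's adjusted p = 0.993).

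Of 7 tested genes of sterol uptake and other SREBP targets, 3 were called higher and 3 lower (median log2 change 0.04), where the shares over all tested genes were 22.4% and 22.5%. Tmem97, a sterol-regulated membrane protein, rose from 20.4 ± 4.31 to 52.9 ± 7.46 CPM (edgeR's adjusted p = 2.14e-05), and Npc2, which carries cholesterol inside lysosomes, from 1058 ± 102 to 1893 ± 258 CPM (edgeR's adjusted p = 0.000244). Lpin1, a phosphatidate phosphatase, fell from 119 ± 13.9 to 36.7 ± 7.08 CPM (edgeR's adjusted p = 1.49e-06). Of 10 tested genes of esterification, oxysterols and efflux, 5 were called higher and 2 lower (median log2 change 0.42), against the same shares of 22.4% and 22.5%. Only 1 was lower when saline replicate 2 or 3 or LPS replicate 5 was left out. Soat1, which esterifies cholesterol for storage, rose from 109.7 ± 11.04 to 180.3 ± 25.0 CPM (edgeR's adjusted p = 0.000741), Hsd3b7, an enzyme of sterol breakdown, from 141 ± 11.2 to 237 ± 27.0 CPM (edgeR's adjusted p = 0.000348), and the exporter gene Abcg1 from 876 ± 80.3 to 1352 ± 338 CPM (edgeR's adjusted p = 0.00763). Cyp27a1, a sterol hydroxylase, fell from 60.1 ± 5.73 to 38.4 ± 5.69 CPM (edgeR's adjusted p = 0.00185).

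Genes with the most similar profiles over the 10 libraries were taken by the root mean square difference of centred log2 CPM among 9783 other tested genes whose mean reached 5 CPM. For Mvd these were Rnf149, a ubiquitin ligase gene, Pirb, an inhibitory receptor gene, Ucp2, a mitochondrial carrier gene, and Man2a1, a mannosidase gene (differences of 0.281, 0.287, 0.289 and 0.293). For Hmgcs1 they were Gmfb, Lrif1, Ogdh and Rabgap1 (0.112, 0.121, 0.131 and 0.133). None of these 8 genes was in the pathway lists.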

How the data were processed

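RNA was measured in 10 libraries, 5 per group, each from 1 mouse. Raw read counts of each gene were deposited by the authors. The submitters' processing notes name featureCounts as a tool and GRCm38 or mm10 as the build. Which aligner, annotation and strand setting were used is not stated there. Per the labels' protocols, RNA was amplified from 5 ng before library construction, and no molecular identifiers are named, so limits from a count of 0 cover counting error only. The authors also deposited normalised RPKM values; each equalled the count times 1 factor per gene and 1 per library (largest deviation 0.000484 in log2 over 1951 genes), which gave relative gene lengths. A line with no gene name was left out (1 row).

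Counts of 13793 genes passing filterByExpr were fitted with edgeR 4.0.16 (TMM, quasi-likelihood F test, Benjamini-Hochberg at 0.05) in R 4.3.3. Standard errors come from the spread of log2 CPM within each group, with a prior count of 2, and not from the edgeR fit. The test was checked on simulated data with few changed genes and no trend over gene length. That check does not cover data with such a trend. Summaries used Python 3.11.15. Sequences and coordinates are from RefSeq tables of GRCm38.p6, the build of the processing notes.

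Members and lists were chosen with earlier results of these data known; all list entries were matched (164 of 164), 1 by an older symbol. Some genes of these pathways are not reported here and were left out of the lists and their counts. All 9 genes and all tested synthesis genes are named, as are Srebf2, Scap and Insig2; of other lists the 4 called genes with the smallest adjusted p (3 in the lists of SREBP processing and of uptake), and the 4 genes most like Mvd and like Hmgcs1. Alternatives were other scalings and filters, DESeq2 1.42.0, limma 3.58.1 (voom, and log2(RPKM + 1) or log2(RPKM + 0.1) at a mean RPKM of at least 1, or without that filter), a term for ranges of mouse numbers, removal of a gene-length trend, protein-coding genes only, and each library left out.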

Additional observations from a re-analysis of the deposited data

Results flagged for a closer look

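A gap between the highest or lowest mouse and the rest of its group was over Dixon's 95% limit in 5 of 102 groups of 5 mice (51 genes in 2 groups); chance flags about 1 in 20 groups. Lss had 18.63 CPM in LPS replicate 4, against 8.95 to 11.1 CPM in the other LPS mice. Tmem97 had 39.68 CPM in the same mouse, against 55.3 to 57.6 CPM. Mbtps1 had 105.1 CPM and Mbtps2 34.31 CPM in saline replicate 4, against 73.7 to 80.4 and 25.9 to 27.8 CPM in the other saline mice. Cyp27a1 had 28.26 CPM in LPS replicate 3, against 40.2 to 41.5 CPM.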

How the results depend on the processing

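Mvd, Insig1 and Hmgcs1 kept their direction and call in all 23 alternatives. The count of the 8 tested genes called higher was 2 to 4 when 1 library was left out, and the count called lower was 1 to 2, the second being Lss without LPS replicate 4; over the same fits 18.9% to 25.5% of all tested genes were called higher and 18.8% to 25.2% lower. The log2 change turned sign with the gene-length trend removed for Lss (0.11), Tm7sf2 (-0.10), Msmo1 (-0.03) and Sc5d (0.03). It also turned for Acat2 with a term for ranges of mouse numbers (0.03) or without LPS replicate 5 (-0.13 to 0.04 over the fits with 1 library left out), and for Scap without LPS replicate 4 (-0.03 to 0.23 over those fits). None of these 6 genes was called in those fits, and the cause was not tested. In the 250 bases before the start alone the same members held each motif, and the shares of all promoters were lower (33.8% for CCAAT, 32.7% for GGGCGG, 6.02% for CACGTG and 1.05% for TCACNCCAC). Over 1146 values of named genes under alternatives, 1085 kept direction and side of the threshold. No paired analysis was possible because the labels give no replicate numbers that the groups share; mouse numbers differ between all mice, and a term for their 3 ranges was fitted in place of pairs, which ended the calls of Fdps and Nus1 among the named genes. On log2(RPKM + 1) without a filter the log2 change of Fasn (0.44) was smaller, as that scale understates low genes. Low counts limit Idi1 and Idi2, which were not compared, and Sqle and Insig1, with at most 149 reads per library. The same limit holds for Fdps, with 52 to 170 reads per library, and for Mvd in saline, with 64 to 107 reads.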

Other observations

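Genes of branches beside sterol synthesis were also read. Of 12 tested genes of the isoprenoid branch, which attaches prenyl groups to proteins and makes dolichol and ubiquinone, 2 were called higher and 2 lower (median log2 change 0.02), while 22.4% and 22.5% of all tested genes were. Rabggtb, a subunit of the enzyme that prenylates Rab proteins, rose from 60.5 ± 5.65 to 99.96 ± 7.17 CPM (edgeR's adjusted p = 0.000260), and Zmpste24, a protease for prenylated proteins, fell from 115 ± 25.7 to 75.6 ± 10.3 CPM (edgeR's adjusted p = 0.00733). Nus1 (32.0 ± 5.54 and 42.7 ± 5.46 CPM) and Fnta (26.6 ± 4.12 and 20.2 ± 2.03 CPM) were called higher and lower (edgeR's adjusted p = 0.0347 and 0.0446). The call of Nus1 ended without saline replicate 2, 3 or 5 or LPS replicate 2 or 5 (edgeR's adjusted p = 0.0616 to 0.0839). It also ended with a term for ranges of mouse numbers (edgeR's adjusted p = 0.0746), with library sizes alone (0.104) and with no filter (0.0916). The call of Fnta ended without saline replicate 1, 3 or 5 or LPS replicate 1, 2, 3 or 5 (edgeR's adjusted p = 0.0630 to 0.112). It also ended in edgeR with RLE factors (adjusted p = 0.0594), no filter (0.0968) or protein-coding genes only (0.0522), with DESeq2 (0.0577), with limma-voom (0.0510) and with limma on log2(RPKM + 1) without a filter (0.0513).

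Of 9 tested genes of fatty acid synthesis, 2 were called higher and 2 lower (median log2 change -0.16), near the 22.4% and 22.5% of all tested genes. With the gene-length trend removed 4 were higher and 1 lower, where 20.6% and 18% of all genes were. On filtered log2(RPKM + 1) or log2(RPKM + 0.1) 1 was higher, but there Fasn did not pass the filter and was not tested. Fasn was called higher in all 21 alternatives that tested it. Elovl1, an elongase for very long fatty acids, rose from 332 ± 43.2 to 779.9 ± 109.6 CPM (edgeR's adjusted p = 1.89e-05), and Fasn, fatty acid synthase, from 4.46 ± 1.203 to 9.57 ± 2.88 CPM (edgeR's adjusted p = 0.00393). Acly, which makes the acetyl-CoA used by both pathways, fell from 161 ± 21.5 to 99.6 ± 7.41 CPM (edgeR's adjusted p = 0.000690). Fads1, a desaturase, fell from 77.3 ± 10.3 to 47.7 ± 17.8 CPM (edgeR's adjusted p = 0.0150), a call that ended with the gene-length trend removed (log2 change -0.54, edgeR's adjusted p = 0.0640).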
